A study of Homo sapiens with 14 samples.

Results

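Translation initiation and elongation factors are the proteins that load ribosomes onto mRNA, find the start codon and drive the addition of amino acids. Their genes were read here as the probe sets annotated with exactly 1 gene whose symbol begins EIF1 to EIF6 or EEF, leaving out the eIF2 alpha kinases (EIF2AK) and the eIF4E-binding proteins (EIF4EBP), which are inhibitors. The rule found 94 probe sets of 45 genes, of 19070 single-gene probe sets and 11963 genes on the array. The genes EIF4A1, EIF4A2, EEF1B2, EEF1G, EIF3C and EIF3CL are represented by probe sets annotated with several genes, so no value is given for these 6, and EIF4G3, EEF1E1 and EEF2K were not analysed here. EIF1AY, which lies on the Y chromosome, is counted among the 45 and its level is not given.

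The cells were RS4;11, an established B-precursor acute lymphoblastic leukemia line. All cells had first been deprived of hormone in charcoal-dextran-treated serum, and were then left untreated (0 hours, 4 arrays) or given 10 nM dexamethasone for 8 hours (5 arrays) or 24 hours (5 arrays). Dexamethasone is a synthetic glucocorticoid, and glucocorticoids are used to treat this leukemia. The 14 arrays came from 5 runs, of which runs 1 and 2 shared a day, and run 5 had no untreated array. The paper reports leaving out an untreated replicate after quality control and does not name its run. There were no untreated arrays at 8 or 24 hours, so the effect of the drug and that of the time in culture cannot be told apart. Nothing in the labels ties the arrays of a group to separate cultures, so every p-value rests on a spread that may be technical in part.

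Array medians lay between 6.03 and 6.11 on the log2 scale, and the brightest probe set of each array lay between 14.44 and 14.55. Of 10 markers of B-cell precursors, 8 were measured and all 8 lay above the array median in untreated cells, with the pre-B-cell receptor component VPREB1 at 12.88. Of the 16 measured markers of T and NK cells, monocytes and granulocytes, erythroid cells and platelets, 1 lay above it, the cytotoxic granule gene NKG7 at 8.62.

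Initiation starts when eIF2, carrying GTP and the initiator tRNA, joins the small ribosomal subunit with eIF1, eIF1A, eIF3 and eIF5. The mRNA is brought in by eIF4F, whose cap-binding subunit is eIF4E, and after each round eIF2B recharges eIF2 with GTP. Elongation then uses eEF1A to deliver tRNAs and eEF2 to move the ribosome, while eIF5A, which carries the modified amino acid hypusine, helps at difficult peptide bonds. Many elongation factor and ribosomal protein mRNAs begin with a C followed by a run of pyrimidines, the terminal oligopyrimidine (TOP) tract, through which their translation responds to mTOR.

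Some promoter stretches show how the members differ at their starts. RefSeq promoters (GRCh38.p14, from 250 bases before to 50 after the annotated start) were matched by symbol for 35 of the 45 genes. A C followed by at least 4 pyrimidines within 10 bases of the annotated start was found in 20 of the 35 genes (57.1%), against 42.1% of 9562 genes with a single-gene probe set and a promoter in the table. The members known as TOP mRNAs that the table holds are shown first, with the C and its pyrimidines in capitals. They lie at chr6:73521011-73521040 (minus strand) for EEF1A1, chr19:3985442-3985471 (minus) for EEF2, chr11:7987325-7987354 (plus) for EIF3F and chr12:53006458-53006487 (plus) for EIF4B.
EEF1A1: tgaacgttCTTTTTCgcaacgggtttgccg
EEF2: tcagcgttCTCTTCCgccgtcgtcgccgcc
EIF3F: cgcttccgCCTCCTTCTTTCTCgacaagat
EIF4B: tttgcgttCTCTTTCCCTCTCCCaacatgg

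Some members that fell after dexamethasone, such as EIF3M and EIF4H, also hold such a tract and are not shown. Others whose array values were lower after dexamethasone are shown for contrast, each with the base at its annotated start in capitals. None of these stretches holds such a tract in the window searched. They lie at chr1:44986574-44986603 (minus) for EIF2B3, chr14:67360320-67360349 (plus) for EIF2S1 and chrX:20141817-20141846 (minus) for EIF1AX.
EIF2B3: tgtcagtcAgaggcggcgtggagatcgctg
EIF2S1: ggttccgcAtgcgcggtggagtgagcgaag
EIF1AX: gtcgcggcGccatttgctgccgccgagcgt

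The factors moved mostly in one direction. After 8 hours, 11 of the 45 genes were lower in dexamethasone-treated than in untreated cells, none was higher and 34 did not pass the test (limma over all 11963 genes, Benjamini-Hochberg adjusted p below 0.05). That is 24.4% of the members lower, where 11.0% of all genes tested were lower and 8.69% were higher. At an unadjusted p below 0.05, 14 members were lower and 0 higher at 8 hours, and 21 were lower and 3 higher (EIF1B, EIF3H and EIF3L) at 24 hours. After 24 hours, 19 members were lower, 1 was higher and 25 did not pass, so that 42.2% were lower and 2.22% higher, where 20.9% of all genes were lower and 19.5% higher. The median log2 fold change at 24 hours was -0.19 over the members and -0.02 over all genes. Between 24 and 8 hours of dexamethasone, 13 members were lower and none was higher (28.9% lower), where 13.7% of all genes were lower and 14.6% higher, and at an unadjusted p below 0.05 there were 15 lower and 1 higher. These comparisons share their arrays, so a gene's 8 and 24 hour values against untreated cells are not independent of each other.

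On bulk arrays scaled to a like distribution, fewer cells of one kind and less RNA per cell cannot be told apart. The mean log2 value of the 8 B-precursor markers lay between 9.22 and 9.40 in untreated arrays, 8.65 and 8.91 in the 8 hour arrays and 8.76 and 9.10 in the 24 hour arrays, and its part in the falls was not tested. The other marker lists overlapped between the groups. The 6 monocyte and granulocyte markers averaged 3.73 to 3.84 in untreated cells, 3.70 to 3.82 at 8 hours and 3.70 to 3.93 at 24 hours, and the 6 T and NK markers 5.06 to 5.32 in untreated cells, 5.04 to 5.26 at 8 hours and 4.99 to 5.25 at 24 hours. The 4 measured erythroid and platelet markers averaged 4.60 to 4.74 in untreated cells, 4.47 to 4.80 at 8 hours and 4.43 to 4.68 at 24 hours.

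**Figure D1:**
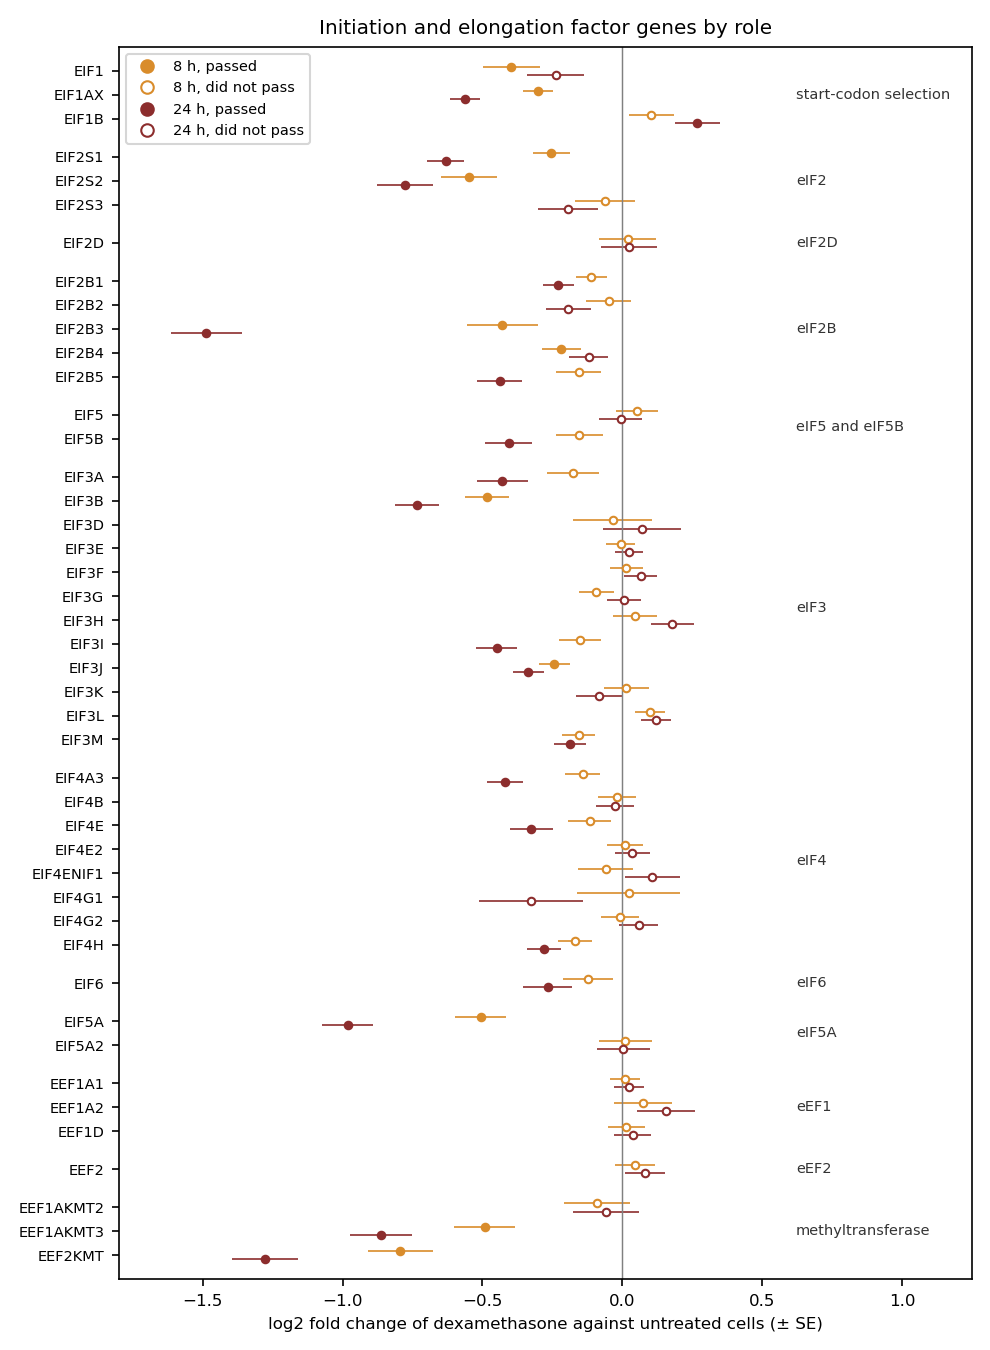
Log2 fold change of dexamethasone against untreated cells for 44 factor genes, grouped by role, at 8 hours (orange) and 24 hours (red), with the standard error as bars and filled points where the adjusted p passed 0.05. Filled points lie to the left of 0 except for EIF1B at 24 hours (0.27), and EIF2B3 lies farthest to the left (-1.49).

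The 36 genes counted as initiation factors are all EIF members except EIF5A and EIF5A2, with EIF4A3, EIF6 and EIF4ENIF1 among them. They make up most of the 45 members. They held 8 of the 11 falls at 8 hours and 16 of the 19 falls at 24 hours, with EIF1B as the rise. Of all genes, 11.0% were lower at 8 hours and 20.9% at 24 hours. Among 6 elongation factor genes EIF5A was the member that fell, at both times. Of 3 methyltransferase genes named for the elongation factor they modify, 2 fell at both times. Whether the shares differ between these classes was not tested.

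The eIF2B complex is the guanine nucleotide exchange factor of eIF2, with 5 kinds of subunit. EIF2B3 encodes its gamma subunit. In run order it read 8.72, 8.66, 9.03 and 9.26 in untreated cells, 8.58, 8.44, 8.37, 8.58 and 8.47 at 8 hours and 7.76, 7.43, 7.10, 7.50 and 7.36 at 24 hours. The 3 groups did not overlap, and every 24 hour array was lower than the 8 hour array of its run. The log2 fold change at 24 hours was -1.49 (SE 0.13, limma adjusted p = 8.2e-08), or 0.357-fold, and against 8 hours it was -1.06 (SE 0.12, adjusted p = 6.0e-06). At 8 hours it was -0.43 (SE 0.13, adjusted p = 0.0257), a call that was lost without untreated replicate 3 (-0.39, adjusted p = 0.0722), without untreated replicate 4 (-0.31, adjusted p = 0.0955) and without 8 hour replicate 3 (-0.40, adjusted p = 0.062). Within the runs of day 1 the 8 hour value was -0.18 and within those of days 2 to 4 it was -0.67.

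The other subunits had smaller values. EIF2B5, the catalytic epsilon subunit, fell by 0.44 at 24 hours (SE 0.08, limma adjusted p = 0.000295), with 8.44 to 8.69 at 24 hours against 8.80 to 9.16 in untreated cells, and EIF2B5 was also called lower at 8 hours with the run as a replicate block (-0.18, adjusted p = 0.0401). EIF2B1, the alpha subunit of the regulatory part, fell by 0.23 (adjusted p = 0.00295), and its value within the runs of day 1 was -0.16 (adjusted p = 0.129). EIF2B4, the delta subunit, passed at 8 hours only (-0.22, SE 0.07, adjusted p = 0.0366) with overlapping groups. That call was lost without any one of untreated replicates 3 and 4 and 8 hour replicates 3, 4 and 5 (adjusted p from 0.0727 to 0.124), and the EIF2B4 value was -0.01 within the runs of day 1 and -0.40 within those of days 2 to 4. EIF2B2, the beta subunit, had a log2 fold change of -0.19 at 24 hours (95% interval -0.36 to -0.02, adjusted p = 0.0681). With the run as a replicate block EIF2B2 was called lower at 24 hours and between 24 and 8 hours.

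The eIF2 subunits differed in whether they passed, and whether their changes differed from each other was not tested. EIF2S1 encodes the alpha subunit, the one that stress kinases phosphorylate. Its log2 values were 9.85, 9.87, 9.95 and 10.09 in untreated cells, 9.78, 9.72, 9.59, 9.73 and 9.60 at 8 hours and 9.34, 9.41, 9.26, 9.30 and 9.22 at 24 hours. The 3 groups did not overlap. EIF2S1 fell by 0.25 at 8 hours (SE 0.07, adjusted p = 0.0109) and fell by 0.63 at 24 hours (SE 0.07, adjusted p = 7.4e-07), and it was 0.38 lower at 24 than at 8 hours (log2 fold change -0.38, adjusted p = 0.00021). Within the runs of day 1 its 8 hour value was -0.11 (adjusted p = 0.310).

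EIF2S2, the beta subunit, read 9.47, 9.49, 9.03 and 9.12 in untreated cells, 8.83, 8.82, 8.60, 8.68 and 8.73 at 8 hours and 8.67, 8.56, 8.36, 8.37 and 8.56 at 24 hours. All treated arrays lay below all untreated arrays. The log2 fold changes of EIF2S2 were -0.55 at 8 hours (SE 0.10, limma adjusted p = 0.000842) and -0.78 at 24 hours (SE 0.10, adjusted p = 8.6e-06). Between 24 and 8 hours it was -0.23 (adjusted p = 0.0899), which passed with the run as a replicate block (adjusted p = 0.00377). EIF2S3, the gamma subunit that holds the GTP, did not pass at either time: its log2 fold change at 24 hours was -0.20 (95% interval -0.42 to 0.03). Untreated replicate 3 of EIF2S3 stood apart at 10.01, where the others were between 10.37 and 10.42, and without that array EIF2S3 was called lower at 24 hours. EIF2D, which can deliver tRNA without eIF2, had a value of 0.02 at 24 hours (95% interval -0.19 to 0.24).

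**Figure D2:**
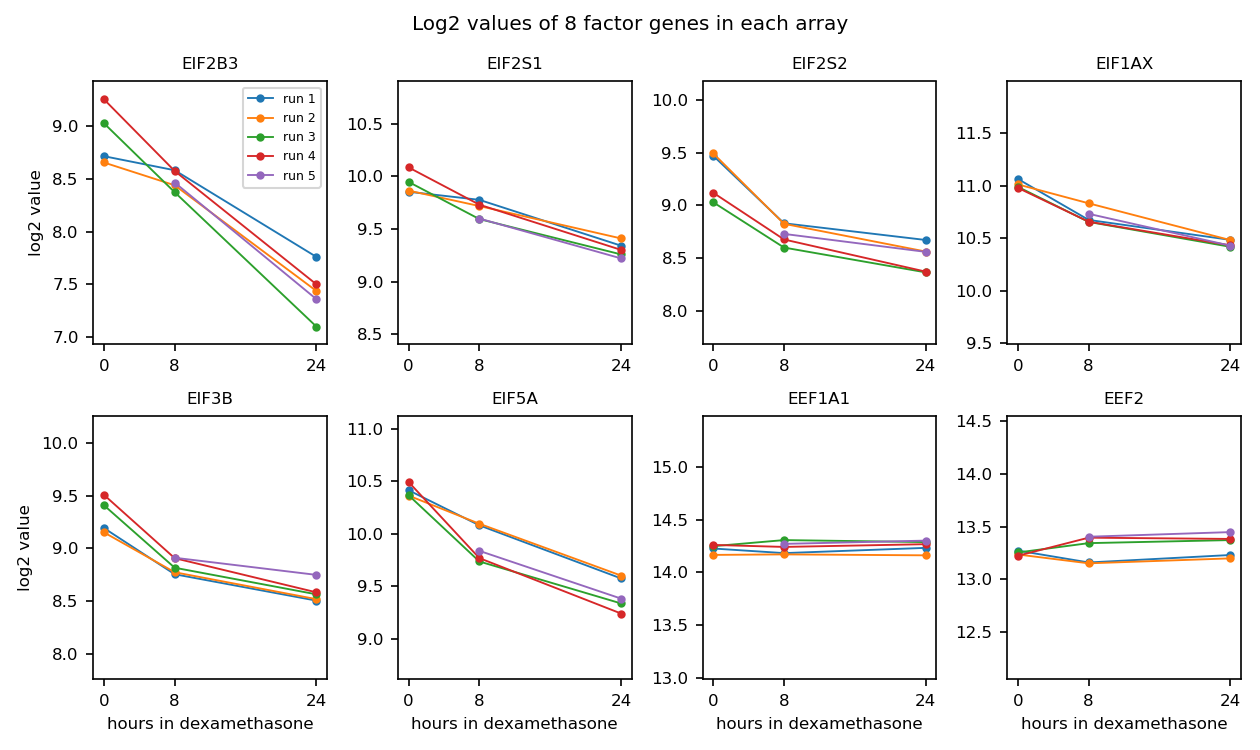
Log2 value of 8 factor genes in each of the 14 arrays against hours in dexamethasone, with the arrays of a run joined by a line and run 5 lacking an untreated array. Every panel spans the same log2 range, and the lines of EIF2B3 descend in each run (7.10 to 7.76 at 24 hours) while those of EEF1A1 stay between 14.16 and 14.31.

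Start-codon selection rests on eIF1 and eIF1A. EIF1AX, the X-linked eIF1A gene, read 11.06, 11.01, 10.99 and 10.98 in untreated cells, 10.67, 10.83, 10.65, 10.66 and 10.73 at 8 hours and 10.48, 10.48, 10.42, 10.43 and 10.43 at 24 hours. The groups were narrow and did not overlap. EIF1AX fell by 0.30 at 8 hours (SE 0.05, adjusted p = 0.000573) and by 0.56 at 24 hours (SE 0.05, adjusted p = 2.3e-07), and its brightest probe set gave -0.19 at 8 hours (adjusted p = 0.0308).

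EIF1 encodes the factor that rejects wrong start codons. Its values were 10.08, 10.06, 10.06, 10.02 and 10.12 at 8 hours, against 10.73, 10.68, 10.26 and 10.19 in untreated cells, and the untreated arrays of the 2 runs of day 1 were the higher ones. EIF1 fell by 0.40 at 8 hours (SE 0.10, adjusted p = 0.0104), with -0.64 within the runs of day 1 and -0.16 within those of days 2 to 4 (adjusted p = 0.113). Tested singly, 5 of its 6 probe sets were called lower at 8 hours. The brightest gave -0.10 (adjusted p = 0.396), while the dim probe set that a variance filter kept gave -0.74. At 24 hours the value was -0.24 (adjusted p = 0.0764), and with the run as a replicate block it passed.

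EIF1B, a close relative of EIF1, was the member that rose. It read 11.61, 11.66, 11.63, 11.59 and 11.54 at 24 hours, against 11.49, 11.52, 11.26 and 11.10 in untreated cells, and the groups did not overlap by a margin of hundredths. The log2 fold change of EIF1B was 0.27 (SE 0.08, limma adjusted p = 0.0133, higher in 4 of 4 runs). The call was lost without untreated replicate 4 (0.19, adjusted p = 0.0555), and the value was 0.13 within the runs of day 1 and 0.41 within those of days 2 to 4.

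The 12 measured subunits of eIF3, the scaffold that holds initiation factors on the small ribosomal subunit, split into members that fell and members that did not pass. At 8 hours 2 fell, EIF3B and EIF3J, and at 24 hours 5 fell and 7 did not pass, where 11.0% of all genes were lower at 8 hours and 20.9% at 24 hours. With the run as a replicate block EIF3A (-0.21, adjusted p = 0.00424), EIF3I (-0.13, adjusted p = 0.0482) and EIF3M (-0.17, adjusted p = 0.0311) were called lower at 8 hours as well. Whether subunits of a complex differed from each other in their change was not tested. EIF3B, a core subunit shared with yeast, read 9.20, 9.15, 9.41 and 9.51 in untreated cells, 8.76, 8.77, 8.82, 8.91 and 8.91 at 8 hours and 8.50, 8.52, 8.56, 8.58 and 8.75 at 24 hours. The 3 groups did not overlap. EIF3B fell by 0.49 at 8 hours (SE 0.08, adjusted p = 0.000293) and by 0.73 at 24 hours (SE 0.08, adjusted p = 1.0e-06).

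EIF3A and EIF3I, further core subunits shared with yeast, fell at 24 hours by 0.43 (adjusted p = 0.00124) and 0.45 (adjusted p = 0.000108). EIF3I read 10.62 to 10.86 at 24 hours, against 11.08 to 11.24 in untreated cells. EIF3J, a loosely bound subunit, fell by 0.24 at 8 hours and fell by 0.34 at 24 hours, with 4 untreated arrays between 9.70 and 9.71, and its 8 hour value within the runs of day 1 was -0.20 (adjusted p = 0.109). EIF3M fell by 0.19 at 24 hours (adjusted p = 0.0157), a call lost without untreated replicate 4 (-0.17, adjusted p = 0.0502) and within the runs of day 1 (-0.17, adjusted p = 0.146). Tested singly, 1 of its 3 probe sets was called lower at 24 hours.

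The eIF3 members that did not pass at 24 hours were EIF3D, EIF3E, EIF3F, EIF3G, EIF3H, EIF3K and EIF3L. EIF3E had a log2 fold change of 0.02 (95% interval -0.08 to 0.13) with values of 13.51 to 13.55 at 24 hours, against 13.46 to 13.59 in untreated cells. EIF3H read 12.98 to 13.23 at 24 hours, against 12.72 to 13.09 in untreated cells, a value of 0.18 (95% interval 0.01 to 0.34, adjusted p = 0.0822) that was above 0 in 4 of 4 runs and passed with the run as a replicate block (0.19, adjusted p = 0.00875). EIF3F had a value of 0.07, averaged over a bright probe set (13.04 to 13.19 in untreated cells) and a dim one (2.75 to 3.16), and the bright one alone was called higher at 24 hours. EIF3D, the subunit that can itself bind a cap, had the widest interval of the 7, from -0.23 to 0.37 around 0.07.

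**Figure D3:**
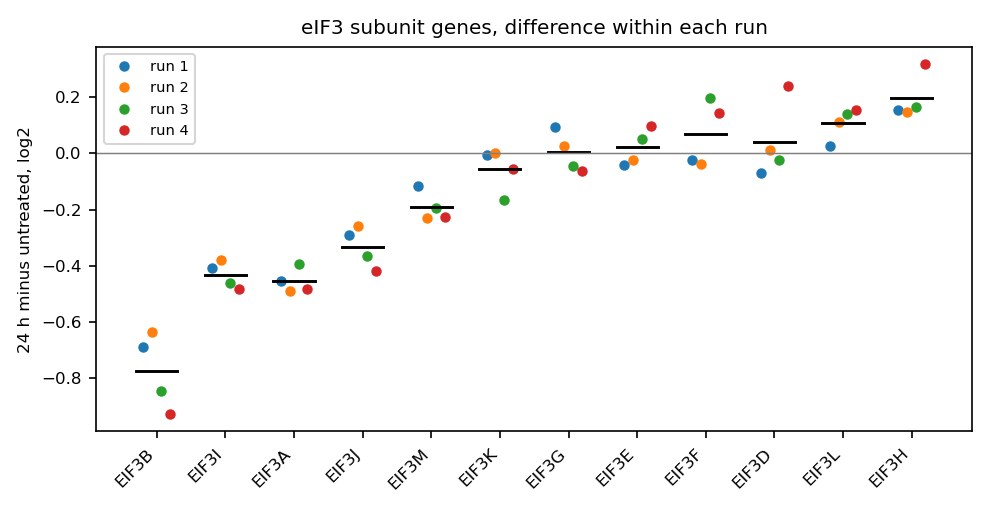
Difference between the 24 hour and the untreated array of the same run (log2) for 12 eIF3 subunit genes, with 1 point per run for runs 1 to 4 and the mean as a black bar. The 4 points of EIF3B, EIF3I, EIF3A, EIF3J and EIF3M lie below 0, those of EIF3L and EIF3H lie above 0, and those of the other 5 genes lie close to it or on both sides.

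In the eIF4 group, none of 8 members passed at 8 hours and 3 fell at 24 hours, where 11.0% of all genes were lower at 8 hours and 20.9% at 24 hours. EIF4E, the cap-binding protein, read 9.31, 9.17, 9.25, 9.24 and 9.15 at 24 hours, against 9.50, 9.37, 9.62 and 9.71 in untreated cells. The groups did not overlap, and EIF4E fell by 0.32 (SE 0.08, adjusted p = 0.00263), with -0.20 within the runs of day 1 (adjusted p = 0.261). Tested singly, 2 of the 3 probe sets of EIF4E were called lower at 24 hours. EIF4A3, the helicase of the exon junction complex and a relative of eIF4A, fell by 0.42 (SE 0.06, adjusted p = 4.5e-05), with 10.40 to 10.48 at 24 hours against 10.77 to 10.97 in untreated cells. EIF4H, which stimulates the eIF4A helicase, fell by 0.28 (adjusted p = 0.00117), and with the run as a replicate block EIF4H was also called lower at 8 hours (-0.19, adjusted p = 0.0153).

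EIF4G1, the scaffold of eIF4F, separated by run. It read 8.12, 8.15, 8.71, 8.66 and 8.44 at 24 hours, against 8.29, 8.39, 9.07 and 9.21 in untreated cells. Both groups were lower in runs 1 and 2 than in runs 3 and 4, and every 24 hour array lay below the untreated array of its run. The log2 fold change of EIF4G1 was -0.33 (95% interval -0.72 to 0.07, adjusted p = 0.192), and it was called lower with the run as a replicate block (-0.35, adjusted p = 0.00487), as it was between 24 and 8 hours (-0.35, adjusted p = 0.00407). EIF4G2, a relative that lacks the eIF4E-binding part, had 0.06 (95% interval -0.09 to 0.21), and EIF4B, which aids eIF4A, had -0.03 (95% interval -0.17 to 0.12). EIF4E2 and EIF4ENIF1, a cap-binding relative and a transporter of eIF4E, did not pass either (0.04 and 0.11), and EIF4ENIF1 was called higher between 24 and 8 hours with the run as a replicate block (0.17, adjusted p = 0.0374).

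Of the factors that join the subunits, EIF5B, the GTPase of subunit joining, fell by 0.41 at 24 hours (SE 0.08, adjusted p = 0.00085). Tested singly, its 6 probe sets ran from -0.62 to -0.06 at 24 hours, and 4 were called lower. EIF5, the GTPase-activating protein of eIF2, had -0.01 at 24 hours (95% interval -0.17 to 0.15). EIF6, which keeps free large subunits from joining, fell by 0.27 at 24 hours (adjusted p = 0.0238), and this call was lost on leaving out any one of untreated replicates 2 and 4 and 24 hour replicates 3 and 4, and within the runs of day 1 (-0.20, adjusted p = 0.097).

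EIF5A was the elongation factor gene that fell. Its values were 10.41, 10.36, 10.37 and 10.49 in untreated cells, 10.08, 10.10, 9.74, 9.77 and 9.84 at 8 hours and 9.58, 9.60, 9.34, 9.24 and 9.38 at 24 hours. The 3 groups did not overlap. EIF5A fell by 0.51 at 8 hours (SE 0.09, adjusted p = 0.000795) and by 0.98 at 24 hours (SE 0.09, adjusted p = 2.2e-07, or 0.506-fold), with an 8 hour value of -0.30 within the runs of day 1. EIF5A2, its relative, lay between 2.83 and 3.31 on all arrays, below the array medians.

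EEF1A1, the main eEF1A gene, read 14.23, 14.17, 14.25 and 14.26 in untreated cells, 14.18, 14.17, 14.31, 14.24 and 14.27 at 8 hours and 14.23, 14.16, 14.29, 14.27 and 14.30 at 24 hours. The groups overlapped throughout. The log2 fold change of EEF1A1 was 0.02 at 24 hours (95% interval -0.09 to 0.14), and its values lay near the top of the arrays' range, whose part in this was not tested. EEF2 read 13.23, 13.20, 13.37, 13.38 and 13.45 at 24 hours, against 13.27, 13.23, 13.25 and 13.22 in untreated cells, a log2 fold change of 0.08 (95% interval -0.07 to 0.23). EEF1A2, the eEF1A of muscle and neurons, had 0.16 at 24 hours (95% interval -0.06 to 0.38). It lay between 5.07 and 5.63 on all arrays, below the array medians. EEF1D, a subunit of the eEF1 exchange factor, had 0.04 (95% interval -0.10 to 0.18).

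Of the methyltransferases, EEF1AKMT3, which modifies a lysine of eEF1A, read 6.59, 6.78, 6.59 and 6.81 in untreated cells, 6.23, 6.41, 6.01, 6.16 and 6.21 at 8 hours and 6.0, 6.08, 5.46, 5.84 and 5.78 at 24 hours. Treated and untreated arrays did not overlap. EEF1AKMT3 fell by 0.49 at 8 hours (SE 0.11, adjusted p = 0.00426) and by 0.86 at 24 hours (SE 0.11, adjusted p = 7.9e-06). EEF2KMT, which modifies eEF2, fell by 0.79 at 8 hours (SE 0.12, adjusted p = 0.000119) and fell by 1.28 at 24 hours (SE 0.12, adjusted p = 1.7e-07), but it belongs to a family of near-identical gene copies, so its single probe set may read several of them. Within the runs of day 1 the 8 hour value of EEF2KMT was -0.45 (adjusted p = 0.0569). EEF1AKMT2 did not pass at 24 hours (-0.06), and it lay between 4.87 and 5.58 on all arrays, below the array medians.

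The 7 measured members known as TOP mRNAs (EEF1A1, EEF1D, EEF2, EIF3E, EIF3F, EIF3H and EIF4B) had 0 calls in any of the 3 comparisons, with log2 fold changes at 24 hours from -0.03 to 0.18 and a median of 0.04, where 20.9% of all genes were lower and 19.5% higher at 24 hours. With the run as a replicate block EIF3H was called higher at 24 hours and between 24 and 8 hours, and EIF3F was called higher at 24 hours with its brightest probe set or without dim probe sets (0.17). The 38 other members had 19 falls and 1 rise at 24 hours and a median of -0.23. In untreated cells EEF1A1, EIF3E, EEF2 and EIF3H averaged 14.2, 13.5, 13.2 and 12.9, in the upper part of the arrays' range. EIF4B averaged 9.9, and EEF1D and EIF3F, averaged over bright and dim probe sets, had 9.2 and 8.0. The part of brightness in this contrast was not tested. Of 54 measured genes of cytosolic ribosomal proteins, which are TOP mRNAs as a class, 2 were higher and 1 was lower at 24 hours, with a median of 0.03, and 1 was higher at 8 hours, where 8.69% of all genes were higher. In the promoter table a C with its pyrimidines was searched for within 10 bases of each annotated start, in any promoter of a gene. It was found in 5 of 15 members that fell at 24 hours (33.3%) and in 14 of 18 that did not pass (77.8%). These shares describe small sets that were not tested, and a tract near the annotated start does not show where transcripts began in these cells.

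Other letters were counted in the same promoters on both strands. The E-box CACGTG, which MYC and related factors bind, was found in 10 of 35 members (28.6%), against 12.0% of genes with a single-gene probe set. It was in 4 of 15 members that fell at 24 hours (26.7%) and in 5 of 18 that did not pass (27.8%). The stretches of EIF2B3 (chr1:44986757-44986786, minus), EIF4A3 (chr17:80147232-80147261, minus) and EIF4E (chr4:98929341-98929370, minus) are shown as members that fell and hold at least 1, with the E-box in capitals. EIF4E holds 2 of them, and the first in the stretch searched is shown. The glucocorticoid response element was searched as GNACA and TGTNC separated by 3 bases of any kind. It was found in 0 of 35 members and in 0.408% of the genes with a single-gene probe set. At so low a share 35 genes would seldom hold any, so the 0 does not set the members apart. The paper reports that few of its glucocorticoid receptor peaks lay at promoters, and sites farther from the starts were not searched.
EIF2B3: gacagagggacaCACGTGtcgaatgctcct
EIF4A3: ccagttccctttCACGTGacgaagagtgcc
EIF4E: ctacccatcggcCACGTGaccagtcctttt

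Of 44 listed genes that act on these factors or beside them, 35 were measured. At 8 hours 11 were lower and 2 higher, with a median of -0.14, where 11.0% of all genes were lower and 8.69% higher. At 24 hours 16 were lower and 4 higher, with a median of -0.17, where 20.9% of all genes were lower and 19.5% higher. Between 24 and 8 hours 9 were lower and 3 higher, where 13.7% of all genes were lower and 14.6% higher. Release and recycling factors had 6 falls among 8 genes at 24 hours, against the 20.9% of all genes, and both measured enzymes of diphthamide, the modified histidine of eEF2, fell.

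EIF4EBP1, the inhibitor that holds eIF4E when mTOR is off, had 10.17, 10.31, 8.83 and 8.98 in untreated cells, 8.16, 8.24, 7.51, 7.69 and 7.93 at 8 hours and 7.67, 7.73, 6.93, 7.01 and 7.26 at 24 hours. Treated and untreated arrays did not overlap, and runs 1 and 2 were the higher ones in each group. EIF4EBP1 fell by 1.66 at 8 hours (SE 0.28, adjusted p = 0.000463) and fell by 2.25 at 24 hours (SE 0.28, adjusted p = 6.7e-06). Between 24 and 8 hours EIF4EBP1 did not pass (-0.58, adjusted p = 0.128), and with the run as a replicate block it did (adjusted p = 0.00114). EIF4EBP2, its relative, had -0.21 at 24 hours (adjusted p = 0.119) and was called lower with the run as a replicate block (-0.19, adjusted p = 0.0188).

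ABCE1, which splits ribosomes after termination, fell by 0.51 at 8 hours and 1.06 at 24 hours (SE 0.08, adjusted p = 1.0e-08), and its arrays at 24 hours lay between 8.91 and 9.10, against 9.92 to 10.29 in untreated cells. The release factors ETF1 and GSPT1 fell at 24 hours by 0.63 and 0.52. PELO, which rescues stalled ribosomes, fell by 0.33 at 8 hours (adjusted p = 0.000359) and fell by 0.48 at 24 hours, and its brightest probe set gave -0.61 and -0.81. The diphthamide enzymes DPH5 and DPH2 fell by 1.05 and 0.89, and for DPH5 the brightest probe set gave -0.66. DHPS, which makes hypusine on eIF5A, fell by 0.64 at 24 hours (adjusted p = 1.8e-05) and by 0.42 at 8 hours, where its value within the runs of days 2 to 4 was -0.18 (adjusted p = 0.0939). LARP1, which binds TOP tracts, fell by 0.55 and MLST8, a subunit of mTOR complexes, by 0.70.

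The rises were fewer. RPS6KA1, a ribosomal S6 kinase of the MAP kinase pathway, rose by 0.80 at 24 hours (SE 0.10, adjusted p = 4.2e-06), with 8.72 to 9.04 at 24 hours against 7.90 to 8.35 in untreated cells. MKNK1, a kinase that phosphorylates eIF4E, rose by 0.31 at 8 hours (0.18 within the runs of day 1, adjusted p = 0.128) and by 0.43 at 24 hours. PPP1R15A, which directs a phosphatase to eIF2 alpha, rose by 0.42 at 24 hours. It lay between 5.14 and 5.98 on all arrays, below the array medians. DHX29, a helicase of scanning, rose by 0.22 at 24 hours (adjusted p = 0.0182), with 0.13 within the runs of days 2 to 4 (adjusted p = 0.221). The 24 hour call of DHX29 was also lost without untreated replicate 1 (0.18, adjusted p = 0.0743), untreated replicate 2 (0.19, adjusted p = 0.0622) or 24 hour replicate 5 (0.19, adjusted p = 0.0507). MKNK2, the other eIF4E kinase, was higher at 24 than at 8 hours (0.44, adjusted p = 0.00634), did not pass against untreated cells (-0.33 at 8 hours, 0.11 at 24 hours), and was called lower at 8 hours with the run as a replicate block (-0.35, adjusted p = 0.0089). PABPC1, the poly(A)-binding protein, and EIF2AK3, an eIF2 alpha kinase of the endoplasmic reticulum, had -0.02 and 0.08 and did not pass. MTOR itself did not pass against untreated cells (-0.15 at 24 hours), but was called lower at 24 hours with its brightest probe set (-0.41, adjusted p = 0.0298) and with the run as a replicate block (-0.19, adjusted p = 0.046). Between 24 and 8 hours the log2 fold change of MTOR was -0.33 (adjusted p = 0.00671), and its brightest probe set gave -0.52.

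**Figure D4:**
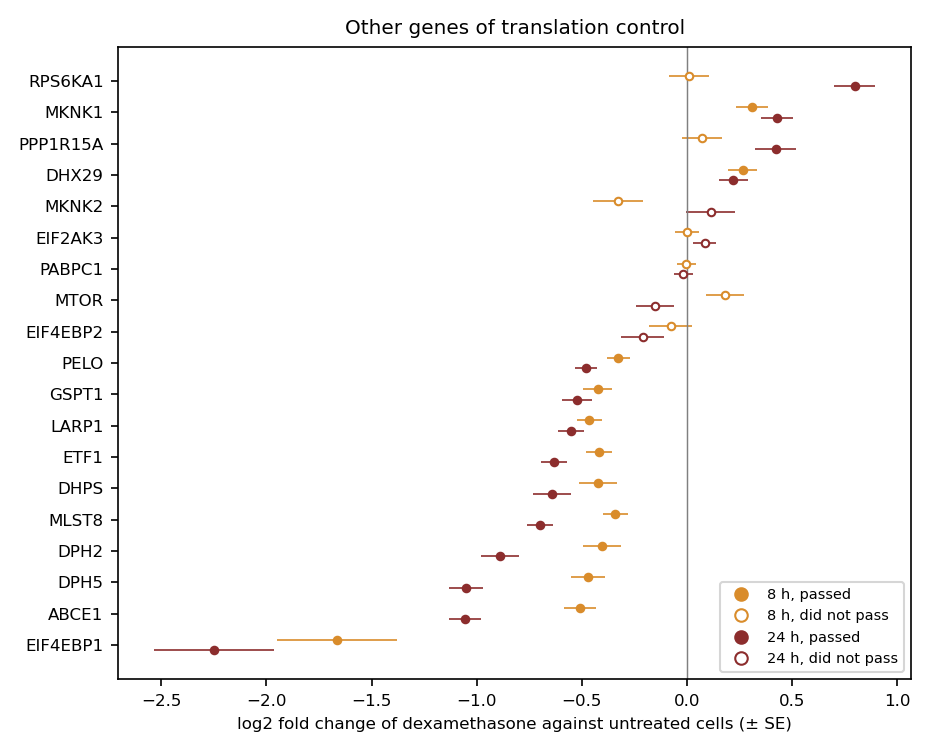
Log2 fold change of dexamethasone against untreated cells for 19 named genes of translation control outside the factor families, at 8 hours (orange) and 24 hours (red), with the standard error as bars and filled points where the adjusted p passed 0.05. EIF4EBP1 lies farthest to the left (-2.25 at 24 hours) and RPS6KA1 farthest to the right (0.80).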

How the data were processed

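RNA of RS4;11 cells was read on Affymetrix arrays per the labels (the methods text names another maker). The authors deposited log2 values, background-corrected, normalized and summarized per probe set by RMA (affy, versions not given in the sources used here), for 22277 probe sets on 14 arrays. Of these, 19070 had 1 gene symbol in the platform annotation, 1043 had several and 2164 had none. RMA compresses changes of very bright and very dim probe sets.

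Log2 values were averaged per gene over its single-gene probe sets and fitted for 11963 genes with limma 3.58.1 (R 4.3.3) on all 14 arrays, with Benjamini-Hochberg adjustment per comparison at 0.05. The calculation was tested on simulated data without a run effect, so that test does not bear on p-values for arrays that share a run. The number of arrays limits the precision. The methods' variance filter was an alternative, since it keeps genes for varying. Other alternatives were a filter on dim probe sets, the brightest probe set per gene, single probe sets, other scalings, blocks, array weights, stricter thresholds, single days and leaving out each array. Samples of the same run share a day in the labels. Their deviations from group means correlated at 0.30 to 0.54 (13 pairs), against -0.47 to 0.47 for 52 pairs of other runs, so the runs pair the samples. The main fit held no term for the run. Its adjusted p-values, intervals and counts of members that did not pass therefore leave this pairing out. Counts with the run as a replicate block are given below. Run and title numbers agree except that replicates 4 and 5 of the treated groups are runs 5 and 4. No 2 arrays were identical.

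The members, gene lists and tests were chosen with earlier results of these data known. Genes named were, per comparison with untreated cells, the 8 largest non-overlapping falls and rises (5 between 24 and 8 hours) and a set always named; the remaining members are named as members of the families. Of the translation control list, up to 5 per comparison and direction by adjusted p were named, with a few always named. Figures used matplotlib 3.10.9.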

Additional observations from a re-analysis of the deposited data

Results flagged for a closer look

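Among 189 groups of 4 or 5 arrays (63 genes), 8 held an array whose gap to the others took most of the group's range. The nominal rate of the rule used is about 1 in 20, and its rate in these data was not measured. EEF1A2 read 5.63 in 8 hour replicate 2, with the others between 5.15 and 5.25. EIF3G read 10.95 in 8 hour replicate 5, with the others between 10.75 and 10.77. EIF3M read 9.88 in 24 hour replicate 2, with the others between 9.97 and 9.99. EIF2S3 read 10.01 in untreated replicate 3, with the others between 10.37 and 10.42. EIF4G2 read 8.3 in untreated replicate 4, with the others between 8.09 and 8.13. Of the other genes of translation control, MTOR read 7.14 in 8 hour replicate 4 (others 6.73 to 6.82) and 6.38 in 24 hour replicate 1 (others 6.53 to 6.57), and PPP1R15A read 5.14 in untreated replicate 4 (others 5.53 to 5.57).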

How the results depend on the processing

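For the genes named, the sign stayed the same wherever a call was made here or under an alternative fitted per gene. Signs were not compared where neither passed. The cause of the shifts below was not tested. Lower members at 8 hours (11 of 45) numbered 17 with the day as a block and 7 at an adjusted p below 0.01. They numbered 7 within the runs of day 1 and 25 of 94 probe sets when these were tested singly. Of all 11963 genes, 1832 were lower with the day as a block, 858 at the stricter threshold and 1270 within day 1. Of all 19070 single-gene probe sets, 1742 were lower. Lower members at 24 hours (19 of 45) numbered 38 of 94 as single probe sets, where 3545 of 19070 were lower. Those between 24 and 8 hours (13) numbered 22 of 94 as single probe sets, where 2226 of 19070 were lower. They numbered 8 at an adjusted p below 0.01 and 5 with an absolute log2 fold change of at least 0.3. Of all 11963 genes, 1182 and 1211 were lower under these 2 thresholds. Higher members at 8 hours (0) numbered 1 within day 1 (EIF5) and 1 within days 2 to 4 (EIF1B). Of all 11963 genes, 1126 were higher within day 1 and 1170 within days 2 to 4. Higher members at 24 hours (1) numbered 0 with the variance filter, at an adjusted p below 0.01, with the minimum fold change of 0.3 and within day 1. They numbered 2 without dim probe sets, with the brightest probe set per gene, as single probe sets, with a block for run, for title number or for day, with the run as a random block, with trended and robust eBayes and within days 2 to 4, and 3 with cyclic loess. Leaving out single arrays gave 0 to 2. Where all 11963 genes were fitted, these settings had 1794 to 2661 genes higher at 24 hours. The variance filter had 2077 of 6894 genes higher and the filter on dim probe sets 2273 of 8088. Of the single probe sets, 3528 of 19070 were higher. Higher members between 24 and 8 hours (0) numbered 2 with a block for run, for title number or for day (EIF3H and EIF4ENIF1). They numbered 2 within day 1 (EIF1 and EIF3D) and 1 with only the groups compared (EIF1B). Of all 11963 genes, 1701 to 2302 were higher under these settings.

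With the run as a replicate block there were 16 lower members at 8 hours and 22 lower and 2 higher at 24 hours. Between 24 and 8 hours there were 17 lower and 2 higher, and all 11, 19 and 13 falls were kept. The block raised the counts over all 11963 genes too. Lower genes went from 1312 to 1815 at 8 hours, from 2505 to 2871 at 24 hours and from 1644 to 2082 between them. Higher genes went from 2336 to 2654 at 24 hours and from 1743 to 2277 between 24 and 8 hours. Leaving out single arrays kept 9 to 11 of the 8 hour falls, 17 to 19 of the 24 hour falls and 10 to 13 of those between 24 and 8 hours, where EIF3A, EIF4E and EIF5B were lost without 8 hour replicate 4 or 24 hour replicate 2. The variance filter kept 26 member genes and the filter on dim probe sets (mean below 5) kept 43.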
